A study of Mus musculus with 2 samples.

Results

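The actin cytoskeleton genes and targets of the transcription factors SRF and YAP were followed in primary osteoblasts, the bone-forming cells, after a rise of phosphate outside the cell. The group was a fixed list of 36 genes, taken by name and chosen with earlier results of these data known. It holds actins, calponins and transgelins, tropomyosins, non-muscle myosins, proteins of the adhesion plaque, LIM proteins, SRF itself and known SRF or YAP target genes. All probe sets whose annotation names only 1 of these genes were used, which gave 86 of the 45101 probe sets on the array and all 36 genes, of 18193 genes named in the same way.

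Osteoblasts were released with collagenase and dispase from calvariae of C57BL/6 mice aged 5 days, cultured for 3 days in a-MEM with 10% FBS to 80 to 90% confluence, and starved of serum overnight. The control group then received a-MEM without serum for 6 h, with 1 mM phosphate at pH 7.2. The phosphate group received the same medium for the same time with 4 mM phosphate, made up from a 0.5 M sodium phosphate stock of pH 7.2, so that sodium was added too. Each group is 1 array, and the number of mice behind a culture is not given in the sources used here. Replicate error could therefore not be estimated, no test was run, and each difference describes these 2 arrays.

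Actin filaments are built from globular actin, crossed by myosin II and tropomyosin, and anchored to the matrix through integrin adhesion plaques. Globular actin holds the SRF cofactors MRTF-A and MRTF-B in the cytoplasm, so that assembly of filaments frees them to switch on contractile and cytoskeletal genes. SRF also works with ternary complex factors, the targets of ERK signalling, at immediate early genes. YAP and TAZ respond to the same cytoskeletal tension, to the Hippo kinases and to serum lipids, and act through TEAD factors, and in osteoblasts they are known to link stiffness and spreading to differentiation.

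Most members differed little between 1 mM and 4 mM phosphate, while a few stood far from the rest. Values below are MAS5 signals, the array's linear brightness per probe set, and log2 ratios of 4 mM over 1 mM. Signals under 21.5, the median of all probe sets on both arrays, were raised to that floor before the ratio. Each gene was represented by its brightest probe set naming only it. Of the 36 members, 30 had a ratio within 1.5-fold after this floor, the band that held 80.6% of the 12276 genes measured. One of the 30, Lmod1, was below the floor in phosphate, so its ratio is a bound and its fold may be larger. Over all 36 members the median log2 ratio was −0.08, against −0.06 over all measured genes.

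At 1.5-fold, 5 members (13.9%) were lower in 4 mM phosphate, against 12.1% of all measured genes. Only 1 member (2.78%) was at least 1.5-fold higher, where the share of all genes was 7.26%. At 2-fold, 3 members (8.33%) were lower against 2.92% of all genes, and 1 was higher against 2.3%. Acta1 and Ankrd1, near the floor in phosphate, are 2 of these 3. With a pseudocount in place of the floor, or with a floor of 70.4, 1 member was 2-fold lower, and without probe sets ending in _s_at and _x_at 0 were higher. The lower members were Nexn, Acta1, Ankrd1, Thbs1 and Myl9, and the higher member was Tagln2. On the lower side Myl9, at −0.83, was the member just inside the 1.5-fold limit, and Lmod1, Myh10 and Actg2 were just outside. On the higher side the nearest gene outside was Axl, at 0.40.

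**Figure D1:**
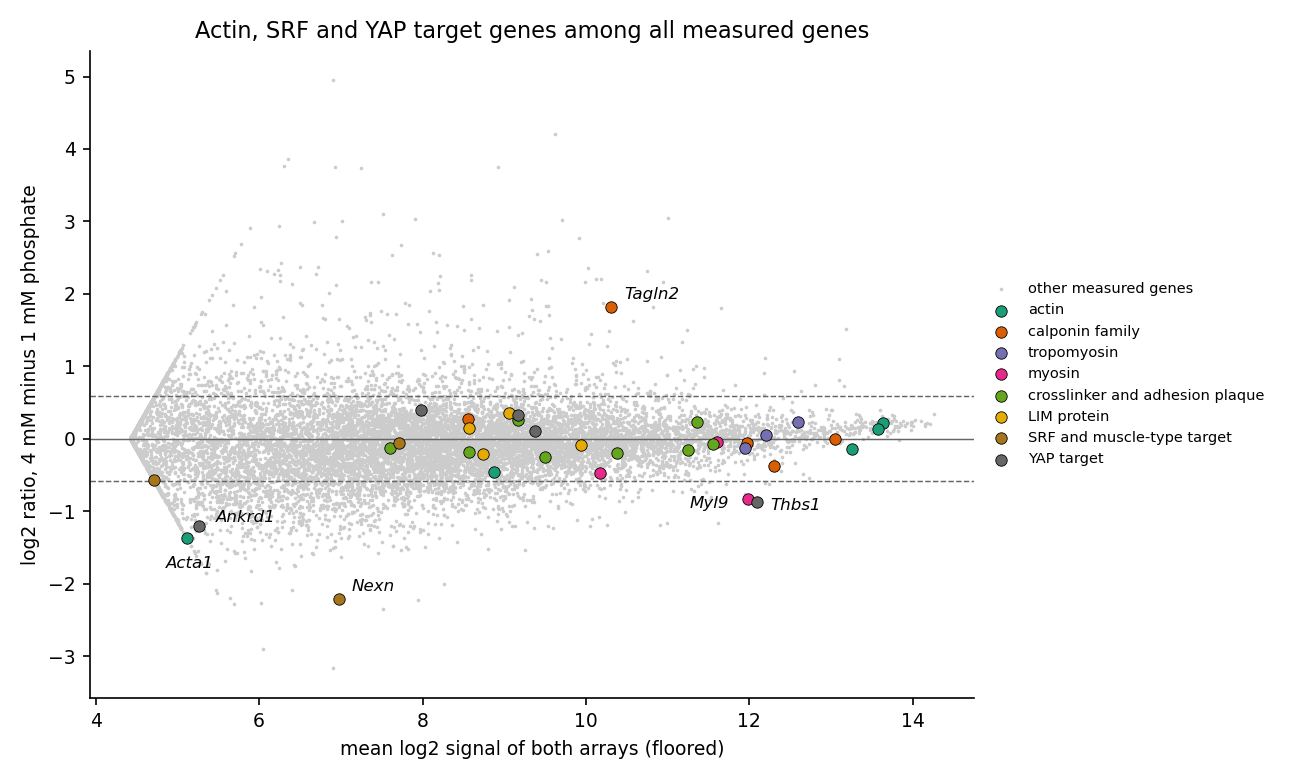
Log2 ratio of 4 mM over 1 mM phosphate (vertical axis) against the mean log2 signal of both arrays (horizontal axis), 1 point per gene, with members coloured by role and dashed lines at 1.5-fold. Of the 30 members within 1.5-fold, Lmod1 is plotted at its bound. The other members within 1.5-fold are no dimmer in mean signal than Zyx, at 203 in the control and 186 in phosphate. The members dimmer than Zyx in mean signal, which are Nexn, Acta1, Ankrd1 and Lmod1, all lie below 0. The 6 named genes lie outside the lines.

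The only measure of error was technical, the scatter of log2 ratios between probe sets of the same gene. Its standard deviation per probe set was 0.42 where the dimmer signal was under 100, 0.26 from 100 to 400 and 0.16 above 400. It says nothing about how 2 cultures treated alike would differ. The probe sets for poly-A control RNAs, which are spiked into the sample, had a median log2 ratio of 0.46. When the arrays were scaled to equalise these controls, all genes had a median of −0.51 and the members one of −0.54. The members at least 1.5-fold lower then numbered 16 and those higher 1, against 41.8% and 2.14% of all genes, and 13 members with ratios above 0 came to lie below 0. Tagln2 stayed above 0 and the 5 lower members stayed lower. Directions below are relative to the arrays as the authors scaled them.

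Nexn, which encodes the actin-binding protein nexilin of muscle Z-discs and adhesions, had the lowest ratio of the members. Its signal was 271 in the control and 58.5 in 4 mM phosphate, a log2 ratio of −2.21 or 4.63-fold lower. The difference exceeded the scatter between probe sets of like signal, although no second probe set named this gene. It ranged from −2.68 to −1.87 over all settings tried.

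Srf, the gene of serum response factor, was at 215 and 206 (log2 ratio −0.07). Its second probe set, at 103 and 129, gave 0.33, and the median over both was 0.13. Lmod1, encoding leiomodin 1, an actin nucleator of smooth muscle, was dim at 32.0 in the control and below the floor at 9.03 in phosphate. This made Lmod1 at least 1.49-fold lower, a bound set by the floor. Over the settings in which it was measured its log2 ratio ran from −1.82, with no floor, to −0.57, and it was at least 1.5-fold lower in 5 of 9. Nexn was past 1.5-fold in every setting, Lmod1 only in some, and Srf was near 0.

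The promoters of the members were searched for the element that SRF binds, the CArG box, and for the TEAD element GGAATG, on both strands. RefSeq promoters (GRCm38.p6, 250 bases before to 50 after a transcription start) were found for 29 members, in 32 windows. The missing entries were Actb, Actg2, Tagln, Thbs1, Nexn, Pxn and Synpo. A CArG box stood in 8 of the 32 member windows and in 1.63% of all 32851 promoters. A TEAD element stood in 14 of 32 (43.8%) and in 14.7% of all promoters. The windows below show CArG boxes of members that were lower and of members that did not differ by 1.5-fold, each with its place in the genome, 5′ to 3′ on the gene's strand, and with the box in capitals.

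Myl9 (chr2:156775293-156775322, plus strand, box starting 161 bases before the start): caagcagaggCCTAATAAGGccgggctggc

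Acta1 (chr8:123894829-123894858, minus strand, 73 bases before): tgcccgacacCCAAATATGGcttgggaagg

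Actg1 (chr11:120348566-120348595, minus strand, 90 bases before): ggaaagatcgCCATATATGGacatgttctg

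Cnn2 (chr10:79988534-79988563, plus strand, 56 bases before): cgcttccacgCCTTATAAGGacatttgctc

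Vcl (chr14:20929161-20929190, plus strand, 227 bases before): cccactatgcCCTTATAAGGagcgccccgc

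Srf (chr17:46556225-46556254, minus strand, 82 bases before): ctggggctcgCCATATAAGGagcggcctcg

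Srf, second box (chr17:46556205-46556234, minus strand, 62 bases before): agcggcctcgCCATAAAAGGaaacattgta

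Fhl2 held a CArG box in both of its promoter windows. The 7 genes with a CArG box had log2 ratios from −1.37 for Acta1 to 0.15 for Fhl2, with a median of −0.07. Of these, Acta1 and Myl9 were at least 1.5-fold lower and 5 lay within 1.5-fold. The 22 members whose window held no such letters had a median of −0.06, with 1 lower (Ankrd1), 1 higher (Tagln2) and 20 within 1.5-fold, Lmod1 as a bound among them. Cnn2 and Vcl hold the same 10 letters and had log2 ratios of −0.38 and −0.07. These counts are too few to compare.

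Ankrd1, the YAP target described below, held the TEAD element at 2 places, shown here in capitals, on the minus strand of chromosome 19.

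Ankrd1 (chr19:36120037-36120066, element 210 bases before the start): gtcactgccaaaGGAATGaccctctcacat

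Ankrd1 (chr19:36119950-36119979, element 123 bases before the start): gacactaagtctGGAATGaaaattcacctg

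The 14 members with a TEAD element had a median log2 ratio of −0.11 and the 15 without it −0.07. Of the 14, 2 were at least 1.5-fold lower (Acta1 and Ankrd1), 1 was higher (Tagln2) and 11 lay within 1.5-fold. A match of letters is a description and does not show that a factor was bound.

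Of the 5 actin genes, 4 lay within 1.5-fold and Acta1 was lower. Actb and Actg1, the cytoplasmic actins of all cells, had log2 ratios of 0.22 and 0.13. Actb went from 11827 to 13778 and Actg1 from 11649 to 12744. The second Actb probe set gave 0.19, and the manufacturer's 3 control probe sets along the same transcript, which the rule also takes in, gave 0.15 at the 3′ end, 0.08 in the middle and 0.07 at the 5′ end. These 5 readings of Actb spanned 0.15 in log2 ratio, and the 3′ set was 1.36 times as bright as the 5′ set in the control and 1.43 times in phosphate.

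Acta2, the smooth muscle α-actin that marks contractile fibroblasts and pericytes, was at 10336 and 9328 (log2 ratio −0.15), with −0.25 on a dim second probe set. Actg2, the smooth muscle γ-actin, was at 552 and 402 (−0.46). Acta1, the skeletal muscle α-actin, was at 55.9 in the control and 21.5 in phosphate, next to the floor, which gave −1.37 or 2.59-fold lower. Actin genes are close in sequence, and probe sets for Acta2 and Actg1 carry the manufacturer's suffix for sets that match several transcripts, so signal shared between actins was not separated here. The ratios of Acta2 and Actg1 were no larger than the scatter of 0.16 between bright probe sets of the same gene. The cytoplasmic actins fell below 0 with the spikes as reference, and Actg1 also after quantile normalization and loess correction.

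**Figure D2:**
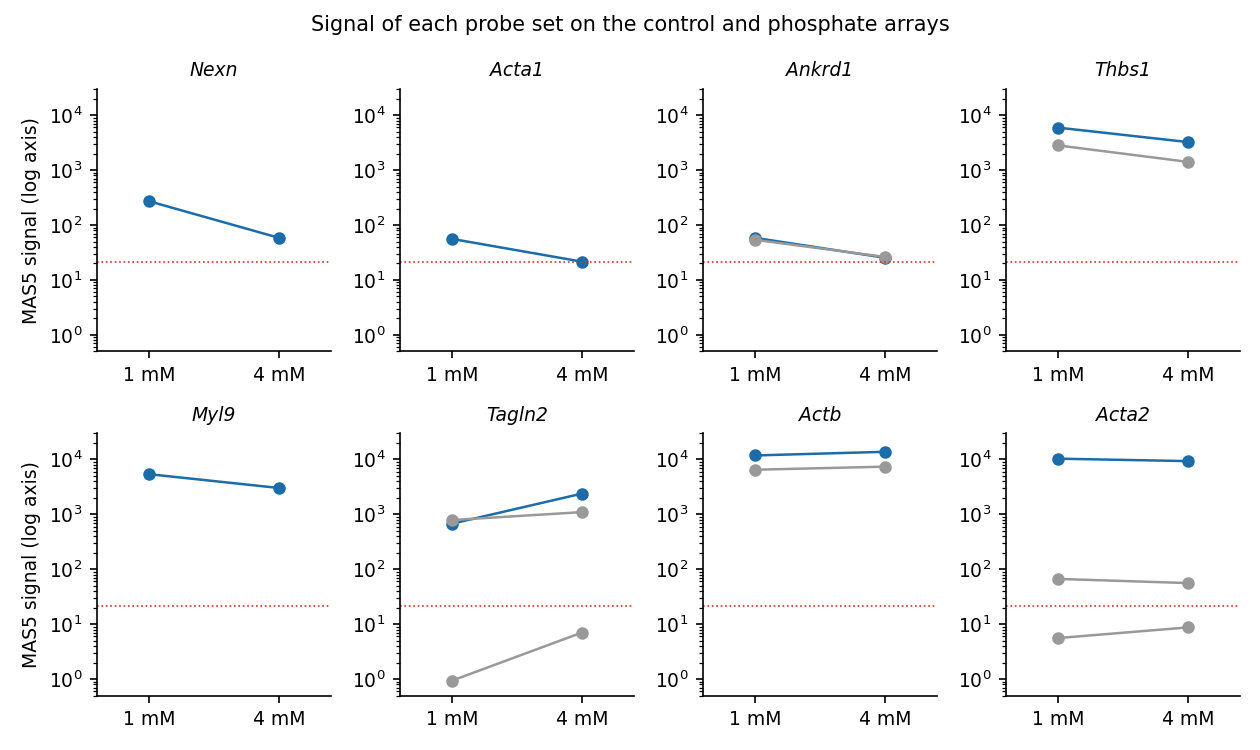
MAS5 signal (log axis) on the control (1 mM) and phosphate (4 mM) arrays for each probe set of 8 members, with the probe set that represents the gene in blue, others in grey and the signal floor as a dotted line. Both probe sets of Ankrd1 and of Thbs1 were lower in 4 mM phosphate, and the 2 brighter sets of Tagln2 differed in slope.

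Genes of the calponin family, which bind and stabilise actin filaments, lay within 1.5-fold except for Tagln2. Tagln2, encoding transgelin 2, a relative of the smooth muscle marker transgelin found in many cell types, went from 678 to 2387 (log2 ratio 1.82, 3.52-fold higher). Its other measured probe set went from 788 to 1099, a log2 ratio of 0.48, below 1.5-fold. The first set carries the suffix for probes that can bind unrelated transcripts, and without such sets no member was 1.5-fold higher.

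Tagln, encoding transgelin, stood at 4113 and 3940 (−0.06). Cnn1, the smooth muscle calponin, was at 343 and 414 (0.27). Cnn2 was at 5749 and 4419 (−0.38), and its probe set was the only one measured. Cnn3 was equal at 8460 and 8470, while its 6 probe sets ranged from −0.53 to 0.00. Transgelin and calponin 1, which are classical SRF targets, thus differed by less than 1.5-fold.

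Tropomyosins, which lie along the filament and gate myosin, were at like signal on both arrays. Tpm1 was at 4634 and 4794 (log2 ratio 0.05), with 0.02 on a second bright set and 0.82 on a dim one (79.9 and 141). Tpm2 was at 4118 and 3773 (−0.13), and its 4 probe sets ranged from −0.29 to −0.12. Tpm4 was at 5702 and 6676 (0.23). None of the 3 genes reached 1.5-fold.

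The myosin genes lay below 0, in unequal degree. Myl9, the regulatory light chain whose phosphorylation drives contraction, went from 5390 to 3023, a log2 ratio of −0.83 or 1.78-fold lower. Myh10, the heavy chain of non-muscle myosin IIB, went from 1356 to 974 (−0.48). Myh9, the heavy chain of non-muscle myosin IIA, stood at 3159 and 3067 (−0.04). Of its 5 probe sets, 4 lay between −0.31 and −0.02 and a dim one (30.3 and 46.9) gave 0.63. Myl9 is measured by 1 probe set, and its difference exceeded the scatter of 0.16 between bright probe sets of the same gene.

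Proteins that crosslink filaments or tie them to integrins were close to equal, and all 8 lay within 1.5-fold with a median of −0.14. Vcl, which encodes vinculin, was at 3082 and 2928 (−0.07), and a second set, below the floor in phosphate, was at least 1.49-fold lower. Tln1, for the integrin activator talin, was at 404 and 354 (−0.19), with −0.15 and a bound of 0.44 on its other sets. Pxn, for the scaffold paxillin, was at 525 and 626 (0.25), with 0.12 and 0.39 on its other sets. Zyx, for the tension-sensing LIM protein zyxin, was at 203 and 186 (−0.13), while a second set, below the floor in the control, had a bound of 0.55. With the median over probe sets Zyx came to 0.21.

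Flna, encoding the crosslinker filamin A, was at 1425 and 1243 (−0.20). Actn1 and Actn4, the non-muscle α-actinins, had log2 ratios of −0.15 (2561 and 2308) and 0.24 (2419 and 2848), and a second set of Actn1 (103 and 161) gave 0.64. Synpo, for the actin-bundling protein synaptopodin, was at 794 and 664 (−0.26). The crosslinker and plaque genes thus lay on both sides of 0 with no member beyond 0.26 on its representative probe set.

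The 4 LIM protein genes were within 1.5-fold as well. Ajuba, a LIM protein that binds LATS kinases, was at 458 and 397 (−0.21), and Fhl2, a LIM-only cofactor and SRF target, at 361 and 400 (0.15). Pdlim7, encoding the Enigma protein of actin filaments, went from 470 to 603 (0.36), and its 3 probe sets ranged from 0.24 to 0.51. Pdlim5, its close relative, was at 1011 and 953 (−0.09) on the representative set, but the other 6 sets gave 0.26 to 0.90. Probe sets of Pdlim5 therefore disagreed in sign, and the gene's direction depends on which is read.

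**Figure D3:**
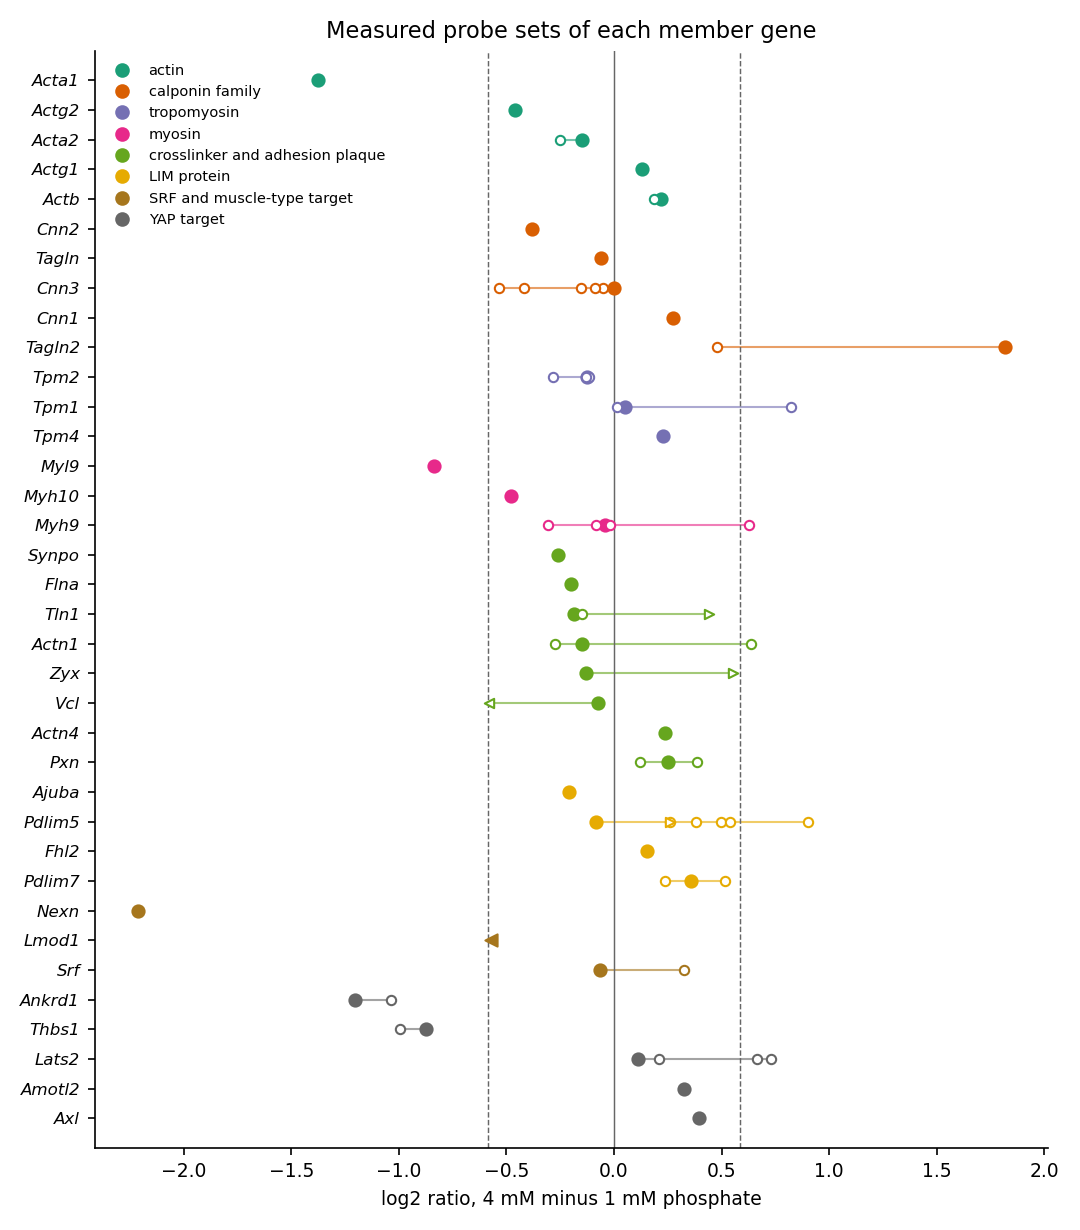
Log2 ratio of 4 mM over 1 mM phosphate (horizontal axis) for each measured probe set of the 36 members, grouped by role. Filled marks are the representative probe sets, open marks the others, triangles are bounds with 1 array at the floor, and dashed lines mark 1.5-fold. Both sets of Ankrd1 and Thbs1 lie left of the lower line, and sets of Lats2, Pdlim5, Tpm1, Myh9 and Actn1 spread to the right.

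The YAP targets did not move as a group. Ankrd1, encoding the muscle ankyrin repeat protein CARP and among the most used reporters of YAP activity, went from 58.5 to 25.4 (log2 ratio −1.20, 2.30-fold lower), with −1.03 on its second probe set (53.8 and 26.3). Its signals in phosphate were close to the floor, where the scatter between probe sets is 0.42, and its ratio ran from −1.44 to −0.77 over the settings that measured it. Thbs1, encoding the secreted matrix glycoprotein thrombospondin 1, went from 5942 to 3244 (−0.87, 1.83-fold lower), with 2818 and 1414 (−0.99) on the second set. Both probe sets of each gene were thus at least 1.5-fold lower.

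The other 3 targets lay above 0, within 1.5-fold, and fell below 0 with the spikes as reference. Amotl2, a scaffold of the angiomotin family that holds YAP in the cytoplasm, was at 514 and 643 (0.32). Lats2, the kinase that phosphorylates YAP and is itself a YAP target, was at 637 and 689 (0.11), and its 4 measured sets ranged from 0.11 to 0.73. Axl, a receptor tyrosine kinase, was at 220 and 289 (0.40).

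The other genes of these pathways, in 6 lists of genes that are no members, were read in the same way. The SRF cofactors were at equal signal, with Mrtfa at 130 and 132 (log2 ratio 0.02) and Mrtfb at 470 and 461 (−0.03). Among the ternary complex factors, Elk3 had 0.20, Elk4 0.25 (1.02 on another probe set) and Elk1, a dim gene, −0.43 (−1.12 on its other set). Myocd, the smooth muscle cofactor myocardin, was at the floor on both arrays. All 5 measured genes of this list lay within 1.5-fold on their representative probe sets. With the median over probe sets 1 was higher and 1 lower, beside 6.92% and 11.1% of all genes.

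The immediate early targets of the ternary complex factors were higher in 4 mM phosphate. This list was chosen with earlier results of these data known, so its counts describe the chosen genes and are no independent support. All 8 genes of that list were at least 1.5-fold higher, with a median of 2.43, and 7 were at least 2-fold higher, against 7.26% and 2.3% of all genes. Fosb, below the floor in the control (12.4 and 85.1), counts as measured through the phosphate array alone, and its 3.96-fold is a bound. With a floor of 70.4 the genes past 1.5-fold numbered 7. Of the 7 genes that cleared the floor in both conditions, the early transcription factors Egr2 and Fos had the highest ratios, 2.99 and 2.59, and Ier2 and Mcl1 the lowest, 1.66 and 0.71. With the spikes as reference 7 of 8 remained past 1.5-fold. By comparison, the 28 measured MRTF-SRF and contractile targets had a median of −0.11, with 5 at least 1.5-fold lower, 1 higher and 22 within 1.5-fold, beside 12.1% and 7.26% of all genes lower and higher. The difference between these lists was not tested, because there is 1 array a condition.

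Among the contractile targets, Pdlim2, a LIM protein of actin filaments, went from 2897 to 1264 (−1.20). Mylk, the kinase that phosphorylates the Myl9 light chain, went from 793 to 358 (−1.15), with −1.07 on its other probe set. Tgfb1i1, the paxillin relative Hic-5, at −0.81, Filip1l at −0.64 and the muscle Z-disc gene Ldb3, at least 2.15-fold lower, completed the lower genes and were singled out after their values were seen. Tes, encoding the adhesion protein testin, went from 216 to 610 (2.83-fold higher), with a log2 ratio of 1.83 on its other set. Flnc, the muscle filamin, was next highest at 0.56. With the spikes as reference 14 of the 28 were lower, where 41.8% of all genes were.

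YAP, TAZ and TEAD genes were expressed on both arrays, apart from Tead4, which was at the floor. Yap1 was at 1561 and 1745 (0.16) and Wwtr1, the TAZ gene, at 2484 and 3186 (0.36). Tead1 was at 825 and 958 (0.22) and Tead2 at 247 and 277 (0.16). The other probe set of Yap1 gave 0.81 and that of Tead1 0.49, and the 3 sets of Wwtr1 ranged from 0.36 to 0.84. Tead3 was dim, at 48.8 and 93.5 (0.94). Of 19 measured genes in this list, 17 lay within 1.5-fold, with Wtip next highest at 0.51 and the LATS-binding LIM genes and scaffolds Limd1 and Amot lowest, at −0.64 and −0.56. The other probe set of Amot gave 0.15 and that of Limd1 −0.16. The median of the list was 0.10, or −0.36 with the spikes as reference. With that reference 5 genes were at least 1.5-fold lower and none higher, beside 41.8% and 2.14% of all genes. With the median over probe sets 3 were higher and none lower, beside 6.92% and 11.1% of all genes.

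The other YAP targets had a median of 0.11, and 4 of 16 were at least 1.5-fold higher and none lower, beside 7.26% and 12.1% of all genes. Tgfb2, a TGF-β ligand, went from 572 to 1033 (0.85), Igfbp3, a carrier of insulin-like growth factors, was at 0.63, and Nuak2 at 0.63 and Myof at 0.59 were singled out after their values were seen. Asap1 and F3, the tissue factor gene, were lowest at −0.57 and −0.31, but the probe sets of Asap1 ranged from −0.57 to 0.17. With a pseudocount in place of the floor 2 genes were higher, beside 6.32% of all genes. With the spikes as reference none was higher and 4 were lower, beside 2.14% and 41.8% of all genes. Ankrd1 and Thbs1 thus lay below the range of this list.

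Among 12 measured genes of other adhesion plaque proteins, 9 lay within 1.5-fold and 3 were lower, beside 12.1% of all genes. Lims2, which encodes the integrin-linked adaptor PINCH-2, went from 71.1 to 29.7 (−1.26), Tns1, for tensin 1, from 169 to 91.1 (−0.89), and Kank2, singled out after its value was seen, was at −0.62. Git1 and Tns2 were highest, at 0.25 and 0.22. The probe sets of Tns1 ranged from −0.89 to −0.29, and the other set of Kank2 gave −0.14. Lims2 has 1 measured probe set, and its log2 ratio ran from −1.73 to −0.01 over the settings. The lower genes numbered 2 with a floor of 70.4 or with loess correction, beside 9.46% and 10.3% of all genes. They numbered 5 with the spikes as reference, beside 41.8%, and 4 without probe sets ending in _s_at and _x_at, beside 12.3%. Vinculin, talin, paxillin and zyxin among the members were within 1.5-fold on their representative probe sets.

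**Figure D4:**
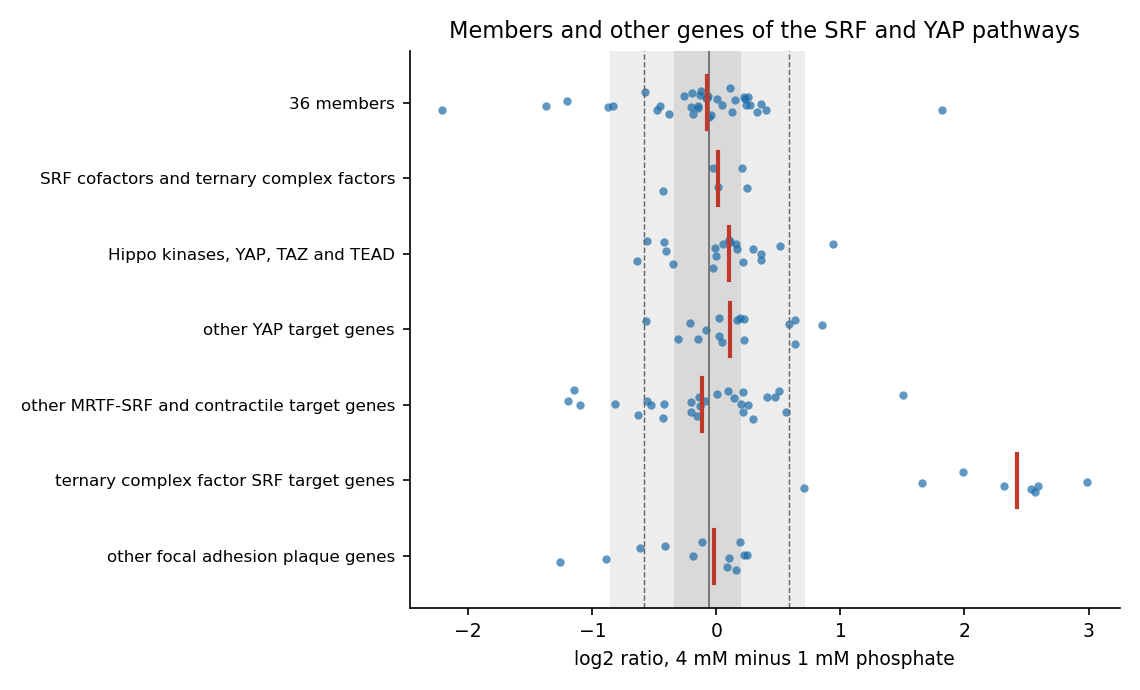
Log2 ratio of 4 mM over 1 mM phosphate (horizontal axis) for the 36 members and 6 other gene lists, 1 point per measured gene, with red bars at list medians. Grey bands show the middle 50% and 90% of all measured genes and dashed lines 1.5-fold. The list of ternary complex factor targets lies to the right at a median of 2.43, the other lists lie about the median of all genes.

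The markers of cell types were read because Acta2, Tagln and Cnn1 are also markers of smooth muscle and pericytes. Osteoblast markers were bright, as the label says, with Sp7 at 1600 and 1223 and Ibsp at 13398 and 14449, and all 5 measured lay within 1.5-fold. Myh11, the defining gene of smooth muscle, was at the floor on both arrays. The summed signal of the 8 smooth muscle and pericyte markers was 876 and 994, with the largest share from Cspg4 (414 and 592). Of the 7 measured, 4 lay above 0 and 3 below, and Kcnj8 (−0.62) was the only one past 1.5-fold. Myh11 and Des also stand in the list of contractile targets. In the skeletal and cardiac muscle list, 6 of 8 genes were at the floor on both arrays, Myod1, Myog and Actn2 among them. All 5 endothelial markers were at the floor.

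Macrophage and osteoclast markers were present. Of 8 genes, 7 lay below 0 and 3 were at least 1.5-fold lower (Aif1, Mrc1 and Cd68), beside 55.9% and 12.1% of all genes. Their median log2 ratio was −0.56. With a pseudocount in place of the floor 2 were lower and with the spikes as reference 7, beside 9.13% and 41.8% of all genes. The 3 probe sets of Csf1r ranged from −0.56 to 0.15. The summed signal of the 8 markers was 8266 in the control and 7205 in phosphate. The largest share came from the osteoclast protease gene Ctsk (4097 and 4376), the only one above 0. The part of these markers' cells in the lower signals of Nexn, Thbs1 and Myl9 was not tested. In a bulk sample fewer cells of a type and less RNA per cell cannot be told apart.

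**Figure D5:**
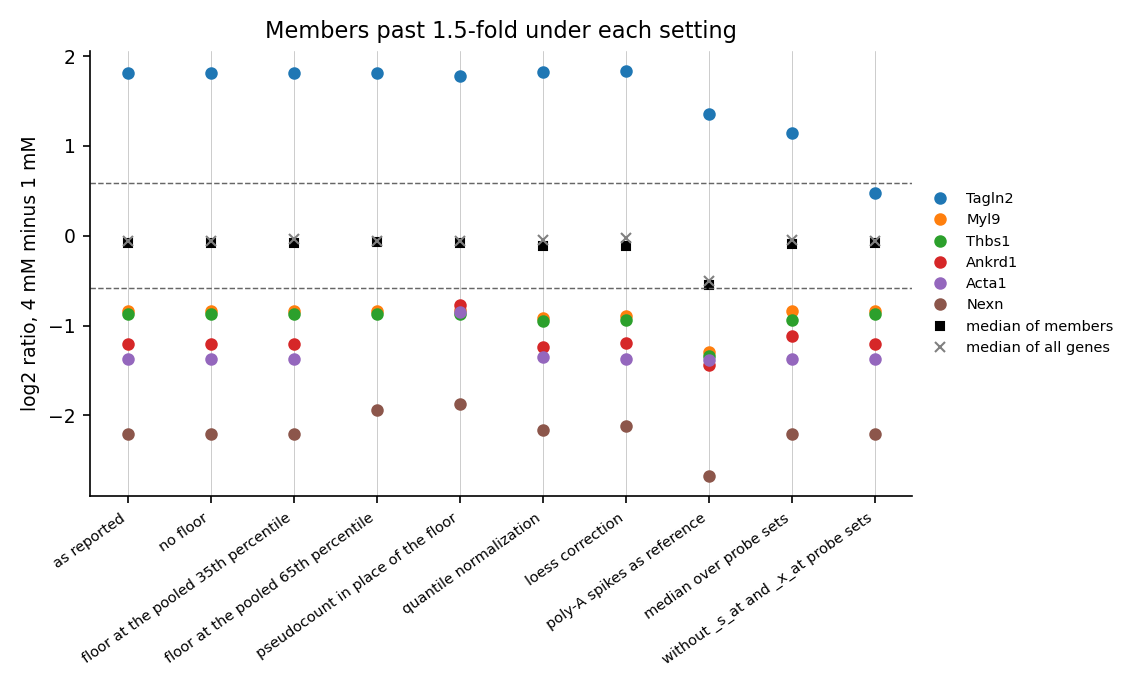
Log2 ratio of 4 mM over 1 mM phosphate (vertical axis) of the 6 members past 1.5-fold, the median of the members and the median of all genes, under the reported values and each of 9 other settings (horizontal axis). Nexn, Thbs1 and Myl9 stay below the lower dashed 1.5-fold line in every setting shown, and Tagln2 lies below the upper line without probe sets ending in _s_at and _x_at.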

How the data were processed

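The deposited signals are intensity readings on a linear scale, from MAS5 and GCOS 1.4 as named in the submitters' processing notes. The trimmed means of the arrays were 198.5 and 198.3, so the authors' signals sit on a common scale. Samples were grouped from their labels. Of 45037 probe sets, besides 64 manufacturer's controls, 34945 had an annotation naming 1 gene, 932 several and 9160 none. RefSeq (GRCm38.p6, for names) held 34741 of their Entrez identifiers.

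Signals below the pooled median of 21.5 were set to that floor, and a log2 ratio is phosphate minus control. A gene counted as measured if above the floor on at least 1 array, and its probe set of highest mean log2 signal stood for it. Where 1 array lay at the floor, the fold is a lower bound ("at least"). The other settings tried were no floor, other floors, a pseudocount, quantile and loess normalization, spike scaling, the median over probe sets, and leaving out the _s_at and _x_at sets. Python 3.11.15, pandas 2.3.3 and statsmodels 0.14.6 were used, and the calculation was tested on simulated data. The members and lists were chosen with earlier results of these data known. Any member could be named, and of each pathway list the 2 highest and 2 lowest genes and any cofactor, YAP, TAZ or TEAD gene. List genes with no probe set naming only them were not analysed here. A list of other regulators is not reported here.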

Additional observations from a re-analysis of the deposited data

Results flagged for a closer look

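The poly-A control RNAs, which belong to no gene of the mouse, read higher in phosphate on 24 of 24 probe sets. Their median log2 ratio was 0.46 and the range 0.20 to 0.65. Their part in the ratios of the members was not tested.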

How the results depend on the processing

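The median log2 ratio of the members stayed between −0.12 and −0.07 under 8 of 9 other settings and was −0.54 with the poly-A spikes as reference. With that reference 16 members were at least 1.5-fold lower, beside 41.8% of all genes, and 5 were at least 2-fold lower. With a floor of 70.4, the 65th percentile of all signals, Acta1, Ankrd1 and Lmod1 were no longer measured. At that floor 3 of 33 members were 1.5-fold lower, beside 9.46% of all genes, and 1 was 2-fold lower. With a pseudocount in place of the floor 1 member was 2-fold lower. Without probe sets ending in _s_at and _x_at, 0 members were 1.5-fold or 2-fold higher, where 7.39% of all genes were 1.5-fold higher. Other counts stayed within 1.5 times of those reported. No called member changed sign in any setting. No paired analysis was possible because each condition has 1 array. The signal over background limits Acta1, Ankrd1 and Lmod1, which lie near the floor in phosphate.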

Other observations

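Probe sets of the members differed with signal. Of 38 member probe sets with the dimmer signal above 400, 24 lay below 0, with a median log2 ratio of −0.08. Of 15 between 100 and 400, 9 lay above 0 (median 0.21), and of 17 dimmer ones 10 lay above 0 (median 0.24). Some genes, Pdlim5 and Lats2 among them, gave several of the sets below 400. These counts are therefore not independent readings of the members. Over all probe sets the medians in the same order were 0.00, −0.07 and −0.07. Lats2, Pdlim5, Tpm1 and Myh9 each had a dim probe set at 0.63 or more beside a bright one between −0.09 and 0.11. Among the 18 members measured by 2 or more sets, all sets lay on the same side of 0 in 11 and on both sides in 7.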
